A study of Mus musculus with 7 samples.

Results

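The genes described here carry glutamate and glutamine through the hippocampal glutamate cycle. They were listed by name, as the genes of glutamate transporters and cycle enzymes, under a rule that uses no measured value, but with earlier results of these data known: Slc17a6, Slc17a7, Slc17a8, Slc1a1, Slc1a2, Slc1a3, Glul and Slc38a1, 8 of the 55416 gene identifiers counted. Each matched 1 identifier, and all 8 passed the filter on low counts. RNA-seq was carried out on tissue labelled hippocampus from male, age-matched, outbred CD1 mice, whose age the sources used here do not give. The control group (n = 3, replicates 1 to 3) was untreated. The DMSO group (n = 2, replicates 2 and 3) received the solvent intraperitoneally, and the ONX-0914 group (n = 2, replicates 1 and 2) received ONX-0914 at 10 mg/kg intraperitoneally, with 2 injections a week over 2 months. The volume and schedule of DMSO matched those of ONX-0914; no allele is given for any group. ONX-0914 is an inhibitor of the immunoproteasome, the form of the proteasome built with inducible catalytic subunits, and the comparison asks how its chronic administration bears on glutamate signalling genes. Nothing in the labels says that replicates were separate animals, so p-values measure the spread between these libraries, which may in part be technical.

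At excitatory synapses glutamate is loaded into synaptic vesicles by the vesicular transporters VGLUT1 (Slc17a7), VGLUT2 (Slc17a6) and VGLUT3 (Slc17a8). After release it is cleared by sodium-coupled transporters of the Slc1 family, chiefly GLT-1 (Slc1a2) and GLAST (Slc1a3) on astrocytes and EAAC1 (Slc1a1) on neurons. Astrocytes turn it into glutamine with glutamine synthetase (Glul), and neurons take glutamine up again through carriers such as SNAT1 (Slc38a1), to make glutamate and GABA from it. In the hippocampus VGLUT1 is the main form of the principal neurons, VGLUT2 is typical of neurons of the thalamus, hypothalamus and midbrain that project there, and VGLUT3 is found in a subset of cholecystokinin interneurons and in serotonin neurons.

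The promoters of the genes with the widest differences in the ONX-0914 libraries are shown, to give the sequence just before a listed start of those transcripts. RefSeq windows (GRCm38.p6) matched 7 of the 8 genes, with no entry for Slc38a1. Each sequence is the 250 bases before the start site, 5′ to 3′ on the strand of the gene, and for Slc17a6 and Slc17a8, which have more than 1 listed start, before the outermost. Capitals mark each GC box, GGGCGG or its reverse complement CCGCCC. Slc17a6 lies at chr7:51621580-51621829, plus strand, Slc17a7 at chr7:45163671-45163920, plus strand, Slc17a8 at chr10:89621250-89621499, minus strand, and Slc1a1 at chr19:28834885-28835134, plus strand.
Slc17a6: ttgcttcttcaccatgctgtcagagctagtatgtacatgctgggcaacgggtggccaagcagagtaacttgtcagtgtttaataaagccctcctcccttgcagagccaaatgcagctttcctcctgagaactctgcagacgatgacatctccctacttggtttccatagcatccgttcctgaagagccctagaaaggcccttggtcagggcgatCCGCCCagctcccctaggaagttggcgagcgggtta
Slc17a7: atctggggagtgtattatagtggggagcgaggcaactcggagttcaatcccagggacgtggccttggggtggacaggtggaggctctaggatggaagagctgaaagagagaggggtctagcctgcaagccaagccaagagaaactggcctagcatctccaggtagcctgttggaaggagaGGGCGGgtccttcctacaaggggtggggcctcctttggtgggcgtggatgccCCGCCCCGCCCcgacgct
Slc17a8: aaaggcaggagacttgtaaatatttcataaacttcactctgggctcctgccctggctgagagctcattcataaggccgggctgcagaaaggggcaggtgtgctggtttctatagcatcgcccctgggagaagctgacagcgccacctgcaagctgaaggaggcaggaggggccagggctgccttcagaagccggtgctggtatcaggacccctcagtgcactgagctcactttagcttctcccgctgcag
Slc1a1: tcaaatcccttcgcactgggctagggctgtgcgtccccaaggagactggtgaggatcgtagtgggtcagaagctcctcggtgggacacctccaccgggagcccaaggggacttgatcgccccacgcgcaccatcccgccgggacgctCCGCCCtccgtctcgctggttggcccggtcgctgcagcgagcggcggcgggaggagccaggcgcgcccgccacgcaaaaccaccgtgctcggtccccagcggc

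Windows with a GC box made up 32.7% of the 32851 mouse promoter windows of the same length. The Slc17a7 window held 3 matches, of which 2 overlap by 1 base. The Slc17a6 and Slc1a1 windows held 1 each, and the Slc17a8 window held none. None of the 4 windows held a TATA box (TATAAA, in 12.4% of windows), a CCAAT box (CCAAT, in 33.8%) or a cAMP response element (TGACGTCA, in 1.55%), searched on both strands. Of the other windows, that of Slc1a3 held 1 TATA box, 1 GC box and 3 CCAAT boxes, that of Glul 1 GC box and 2 CCAAT boxes, and that of Slc1a2 no match. The bases G and C made up 53.2% of the Slc17a6 window, 61.2% of that of Slc17a7, 57.2% of that of Slc17a8 and 70.4% of that of Slc1a1. A match describes letters in a window and is not a site of binding.

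The ONX-0914 libraries stood apart from the rest and from each other. Counts assigned to genes were 2842675 to 3877006 in 6 libraries and 13782270 in ONX-0914 replicate 2, in which 3.71% of counts were mitochondrial against 0.818% to 1.59% elsewhere. A chi-square statistic of counts over genes, taken per degree of freedom, grows with depth. It was 20.3 to 25.2 between ONX-0914 replicate 1 and the control and DMSO libraries, all of like depth. Between control and DMSO libraries it was 3.30 to 7.70, and between libraries within the control or DMSO group 2.63 to 3.40. In ONX-0914 replicate 1, 14 of 14 thalamus and midbrain markers and 10 of 10 striatum markers were above all control libraries, while 7 of 7 dentate granule cell and 6 of 6 CA1 pyramidal cell markers were below. These values go against the hippocampus label of that library, so its tissue or label is in doubt, and so is every ONX-0914 mean that includes it. In ONX-0914 replicate 2, 6 of 8 neocortex markers were above all control libraries, with a summed level of 792 CPM (counts scaled to library size) against 367 to 538 CPM. In that library dentate granule cell markers were below all control libraries in 4 of 7 and above in 2. CA1 pyramidal cell markers were below in 2 of 6 there and above in 3. CA3 pyramidal cell markers were below all control libraries in 6 of 7 and above in 1 of 7 in replicate 1, and below in 3 and above in 3 in replicate 2. Some lists also shifted in DMSO. Endothelial markers were above all control libraries in 6 of 6 in each ONX-0914 library and in 0 and 5 of 6 in DMSO replicates 2 and 3. Microglia markers were above in 5 of 7 in each ONX-0914 library, with 1 below in replicate 1 and 2 below in replicate 2. In DMSO replicates 2 and 3, 5 and 6 of these 7 were above, and 1 and 0 below. Choroid plexus markers were mixed, with 2 of 6 above in each ONX-0914 library and 2 below in replicate 1. The levels of the 8 genes are therefore given per library, and the pathway lists also with each ONX-0914 library left out. In bulk tissue, fewer cells of a type and less RNA per cell cannot be told apart.

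In control hippocampi the 8 transcripts spanned more than 2 orders of magnitude. Levels between genes are compared as CPM per kilobase of exon (CPM per kb). Glul stood highest, at 633 ± 30.2 CPM per kb (SD, n = 3), followed by Slc17a7 at 316 ± 10.5 and Slc1a2 at 225 ± 9.16. Slc1a3 reached 75.9 ± 2.16 CPM per kb. Slc1a1, at 16.2 ± 1.01 CPM per kb, and Slc38a1, at 14.8 ± 1.43, were not separated, since their control ranges of 15.6 to 17.4 and 13.2 to 16.1 overlapped. Slc17a6 followed at 4.36 ± 0.951 and Slc17a8 was lowest at 1.69 ± 0.356 CPM per kb. No other neighbours in this order overlapped in the control libraries. VGLUT1 was thus the second most abundant of the 8 and the other vesicular transporters were the least, and the most abundant of the uptake carriers were those of astrocytes.

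**Figure D1:**
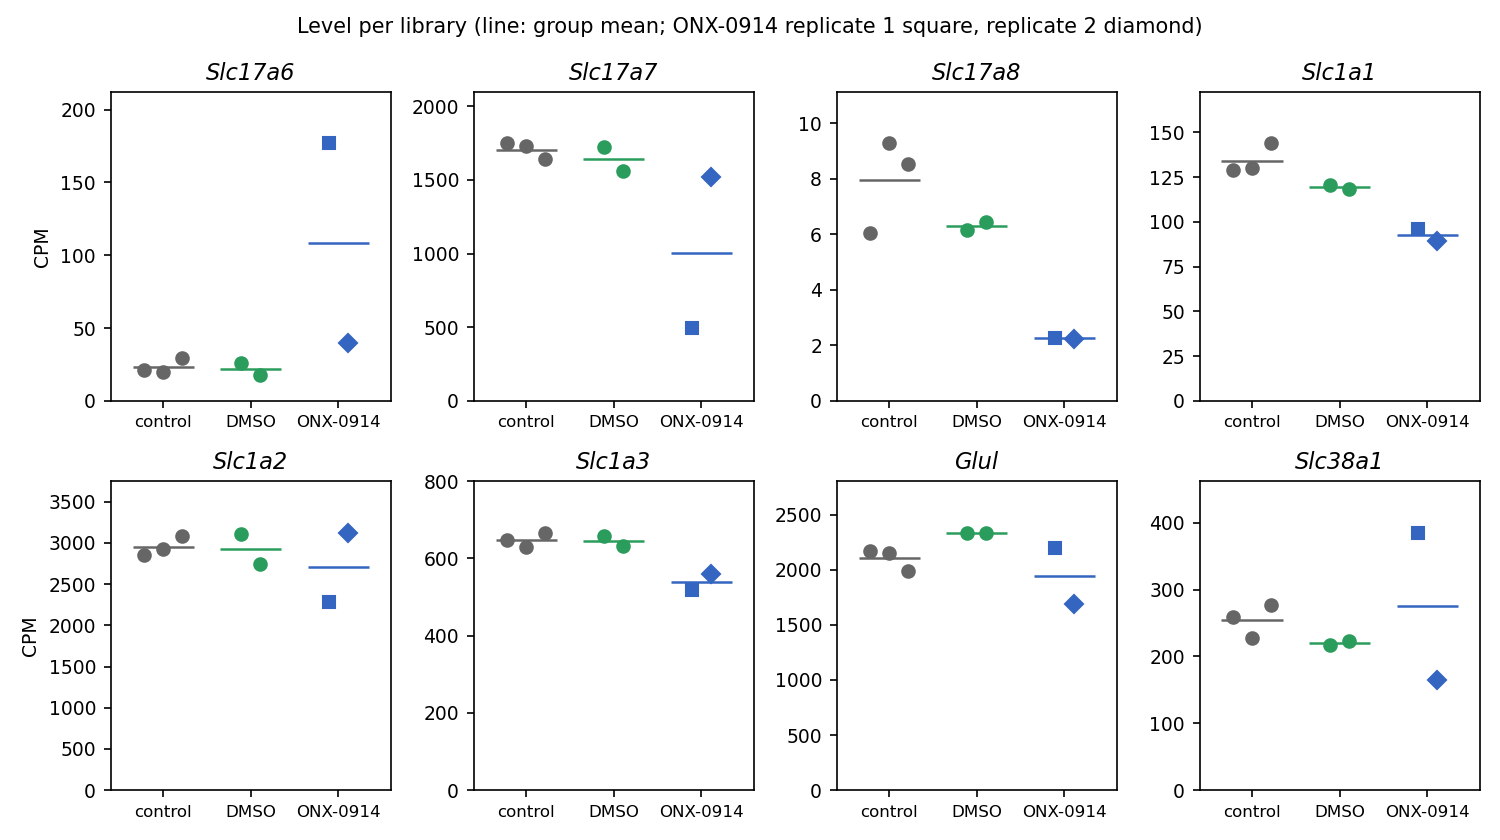
Level of each gene in CPM (linear axes from 0) in the 3 control, 2 DMSO and 2 ONX-0914 libraries, with 1 point per library and a line at the group mean. The ONX-0914 libraries lie close together for Slc17a8 and Slc1a1 and far apart for Slc17a6, Slc17a7 and Slc38a1.

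After ONX-0914 none of the 8 genes passed FDR 0.05 against control by edgeR's quasi-likelihood test, where 0.114% of the 13152 tested genes did (15 genes). Slc17a8 and Slc1a1 were lower by a like amount in both ONX-0914 libraries, and Slc17a6, Slc17a7 and Slc38a1 differed mainly in 1 of them or in opposite directions. At an unadjusted p under 0.05 there were 3 of the 8, against 18.6% of all tested genes. Of these Slc17a6 was higher, as were 10.6% of all genes, and Slc17a8 and Slc1a1 were lower, as were 8.04%. Slc17a8 alone was under FDR 0.1, where 1.48% of all genes were. By position, both ONX-0914 libraries lay above all control libraries for 1 gene (Slc17a6) and below for 4 (Slc17a7, Slc17a8, Slc1a1 and Slc1a3), against 16.9% and 16.3% of all genes. These 5 genes also lay outside the range of all 5 other libraries, DMSO included, in the same directions, as did 22.7% of all genes. The Log2FC was negative for 6 of the 8, against 46.2% of all genes, and its median was −0.20 over the 8 and 0.05 over all genes.

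**Figure D2:**
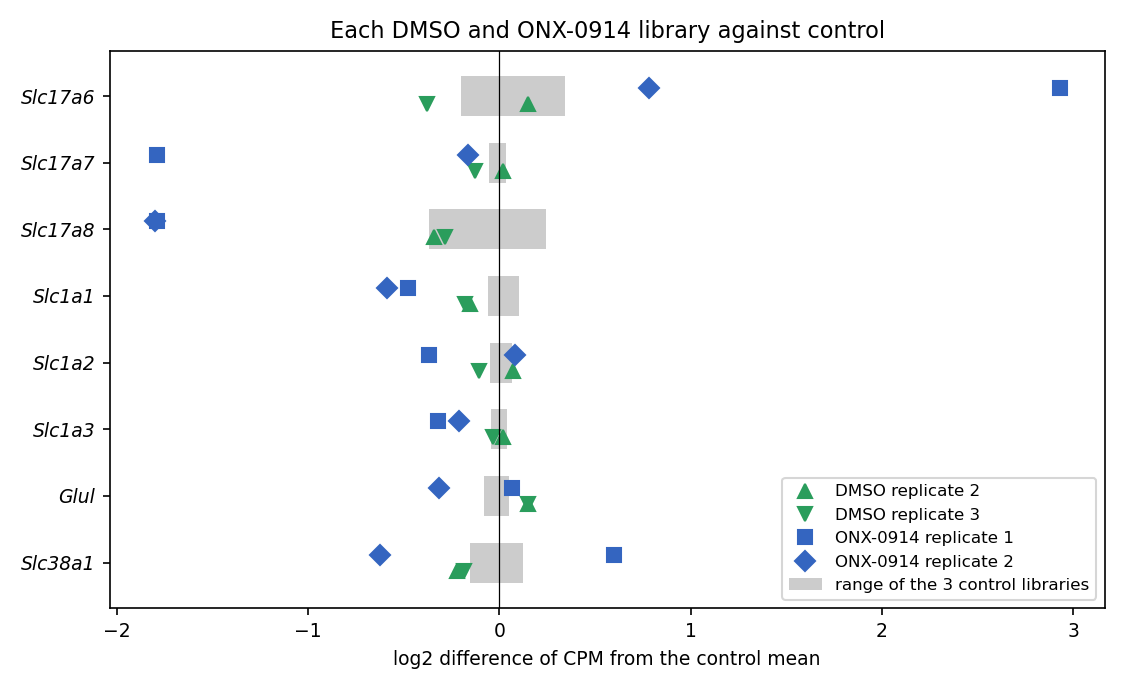
Log2 difference in CPM of each DMSO and ONX-0914 library from the control mean, 1 row per gene, with the range of the 3 control libraries as a grey bar. For Slc17a8 both ONX-0914 libraries lie at the same place left of the bar, whereas for Slc38a1 they lie on opposite sides of it.

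VGLUT3 (Slc17a8), the scarcest of the vesicular transporters, showed the most even difference. It was at 6.06, 9.27 and 8.54 CPM in control replicates 1 to 3, at 6.17 and 6.43 CPM in DMSO replicates 2 and 3, and at 2.27 and 2.25 CPM in ONX-0914 replicates 1 and 2. Both ONX-0914 libraries were below every other library, and the DMSO libraries were inside the control range. Log2FC against control was −1.82 (SE 0.337, a 3.54-fold lower level, unadjusted p = 0.000591, FDR = 0.0742 by edgeR's quasi-likelihood test). The values rest on few reads, 17, 34 and 31 counts in control, 23 and 18 in DMSO, and 9 and 34 in ONX-0914, the last in the library of greatest depth. Leaving out ONX-0914 replicate 1 gave −1.85, and leaving out replicate 2 gave −1.82. By DESeq2, which called 2.95% of all genes, it was past the threshold (FDR = 0.0200), as it was in edgeR with no filter on low counts, which called 2.15% (FDR = 0.0151). Over 16 alternative settings the FDR ran from 0.000146 to 0.376. The study itself singled out Slc17a8 in these libraries, so its direction here is not independent evidence.

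Markers of cholecystokinin interneurons, a class that holds VGLUT3, were not uniformly lower beside it. Their summed level was 429 to 487 CPM in control, 413 to 446 CPM in DMSO, and 353 and 478 CPM in ONX-0914 replicates 1 and 2. In ONX-0914 replicate 1, 4 of the 6 markers were below all control libraries and 1 above, and in replicate 2, 2 were below and 3 above. Cck, the neuropeptide gene that names the class, was at 92.0 to 122 CPM in control and at 70.5 and 270 CPM in ONX-0914. Cnr1, the cannabinoid receptor of these cells, was at 255 to 304 CPM in control and at 187 and 126 CPM in ONX-0914. None of the 6 was at 0 in all control libraries, and the part of this cell class in the Slc17a8 difference was not tested.

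VGLUT2 (Slc17a6) was higher in both ONX-0914 libraries, by very unequal amounts. It was at 21.0, 20.2 and 29.5 CPM in control, at 25.8 and 17.8 CPM in DMSO, and at 177 and 39.9 CPM in ONX-0914 replicates 1 and 2. Neither ONX-0914 library overlapped another group, and they differed from each other more than replicate 2 did from control. Log2FC against control was 2.18 (SE 0.531, unadjusted p = 0.00321, FDR = 0.124 by edgeR's quasi-likelihood test). It was 0.74 without ONX-0914 replicate 1 (FDR = 0.00279) and 2.89 without replicate 2 (FDR = 2.96e-11). With all libraries the gene passed by DESeq2 (FDR = 0.00213) and in edgeR with no filter on low counts (FDR = 0.00136).

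Thalamus and midbrain markers, whose neurons use VGLUT2, moved with Slc17a6 in the library where it was highest. Their summed level was 168 to 186 CPM in control, 148 to 163 CPM in DMSO, and 1709 and 169 CPM in ONX-0914 replicates 1 and 2. In replicate 2, 5 of the 14 were above all control libraries and 5 below. Rora was at 41.4 to 42.7 CPM in control and at 280 and 64.7 CPM in ONX-0914. Prkcd was at 36.0 to 40.1 CPM in control and at 315 and 25.1 CPM in ONX-0914. The defining markers Irx2 and Pax7 were at 0 in all control libraries, at 11.3 and 17.6 CPM in replicate 1 of ONX-0914, and at 0.0661 and 0 CPM in its replicate 2. In replicate 2 the summed list was thus within the control range while Slc17a6 was above it, and the part of these cells in either value was not tested.

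VGLUT1 (Slc17a7), the form of the principal neurons, was lower chiefly in ONX-0914 replicate 1. It was at 1747, 1728 and 1641 CPM in control, at 1725 and 1563 CPM in DMSO, and at 493 and 1520 CPM in ONX-0914. Replicate 2 lay just under the lowest DMSO library, and replicate 1 far under it. Log2FC against control was −0.76 (SE 0.412, FDR = 0.351 by edgeR's quasi-likelihood test), with −0.18 when replicate 1 was left out and −1.79 when replicate 2 was (FDR = 2.88e-10). Markers of forebrain excitatory neurons, which carry VGLUT1, were lower in the same library. They summed to 8444 to 9705 CPM in control, 8180 to 8261 CPM in DMSO, and 2733 and 7547 CPM in ONX-0914 replicates 1 and 2. In replicate 1, 7 of the 7 were below all control libraries, and in replicate 2, 4 were below and 3 above. Camk2a was at 6060 to 7438 CPM in control and at 2083 and 5327 CPM in ONX-0914, and Nrgn at 1479 to 1626 CPM in control and at 527 and 1673 CPM in ONX-0914. None of these markers was at 0 in all control libraries, and their part in the Slc17a7 difference was not tested.

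**Figure D3:**
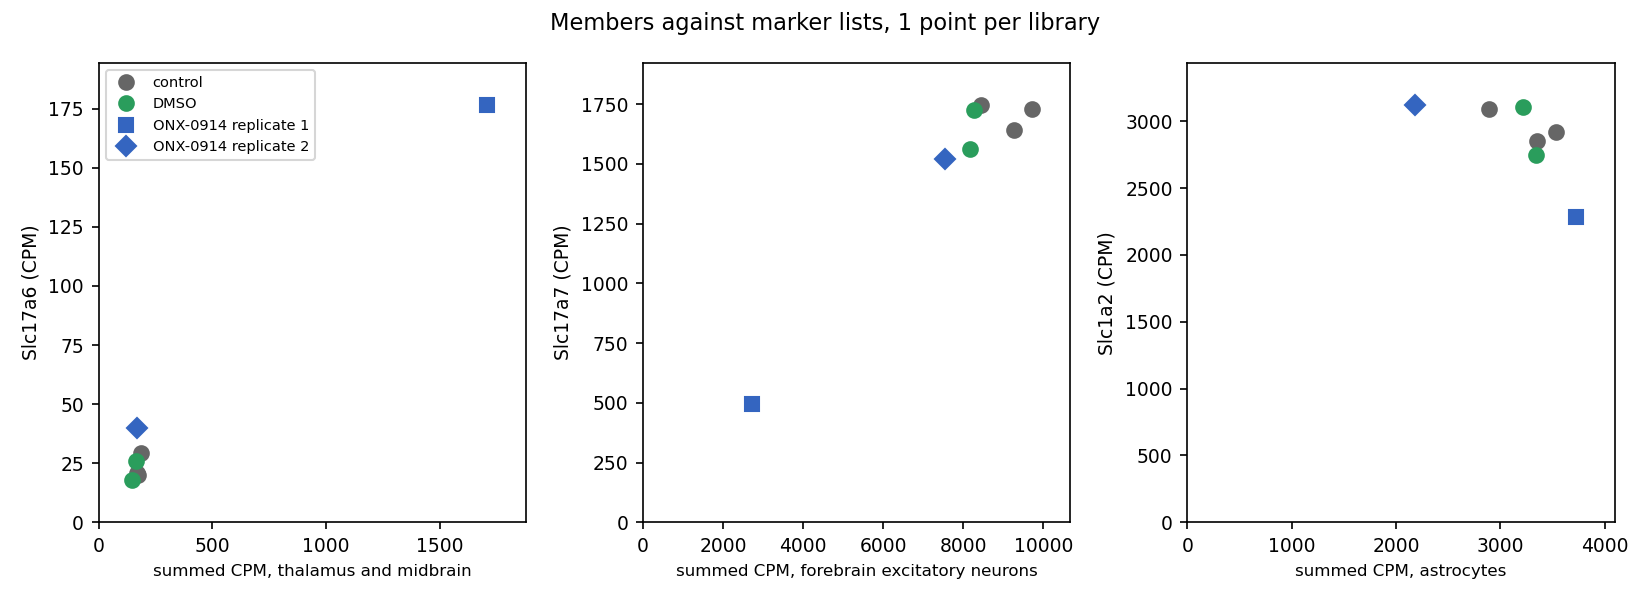
Level of Slc17a6, Slc17a7 and Slc1a2 (CPM) against the summed CPM of thalamus and midbrain, forebrain excitatory neuron and astrocyte markers, with 1 point per library and axes from 0. ONX-0914 replicate 1 stands alone in the left panel at 1709 and 177 CPM and in the middle panel at 2733 and 493 CPM.

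The make-up of the vesicular transporter transcripts, taken per exon length, was stable in control and DMSO hippocampi. Slc17a7 made up 97.7% to 98.4% of their sum in control, and 98.1% and 98.4% in DMSO. It made up 73.4% in ONX-0914 replicate 1 and 97.3% in replicate 2. Slc17a6 made up 1.15% to 1.75% in control, 1.46% and 1.12% in DMSO, 26.3% in ONX-0914 replicate 1 and 2.55% in replicate 2. The ratio of Slc17a7 to Slc17a6 ran from 55.8 to 87.7 over the control and DMSO libraries and was 2.79 and 38.1 in ONX-0914. Slc17a8 made up 0.390% to 0.602% in control, 0.401% and 0.462% in DMSO, and 0.385% and 0.164% in ONX-0914. Its share was therefore near the control range in ONX-0914 replicate 1, where the summed level was 125 CPM per kb, and lower in replicate 2, where it was 290 CPM per kb, against 312 to 329 CPM per kb in control.

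**Figure D4:**
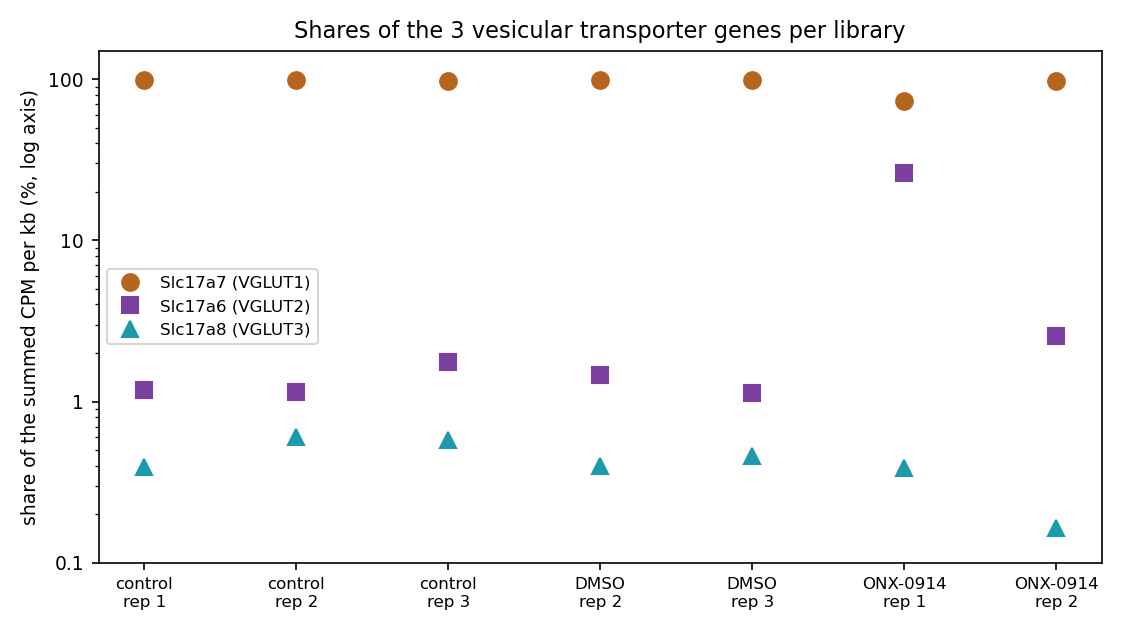
Share of Slc17a7, Slc17a6 and Slc17a8 in their summed CPM per kb (percent, log axis) in each of the 7 libraries. Slc17a6 reaches 26.3% in ONX-0914 replicate 1 and 2.55% in replicate 2, and stays at or under 1.75% in the control and DMSO libraries.

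Of the uptake carriers, the neuronal EAAC1 (Slc1a1) differed most evenly. It was at 129, 130 and 144 CPM in control, at 120 and 118 CPM in DMSO, and at 96.1 and 89.3 CPM in ONX-0914. The 3 groups did not overlap, with DMSO between the others. Against control its Log2FC was −0.53 (SE 0.155, a 1.45-fold lower level, unadjusted p = 0.00839, FDR = 0.154 by edgeR's quasi-likelihood test). It was −0.60 without ONX-0914 replicate 1 (FDR = 0.000706) and −0.49 without replicate 2 (FDR = 0.0169). Over 17 alternatives Log2FC stayed between −0.60 and −0.39.

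GLAST (Slc1a3), the astrocytic carrier also used by cerebellar Bergmann glia, was slightly lower in both ONX-0914 libraries. It was at 648, 630 and 667 CPM in control, at 657 and 633 CPM in DMSO, and at 519 and 560 CPM in ONX-0914. Both ONX-0914 libraries were below the 5 others. Log2FC was −0.26 (SE 0.167, FDR = 0.414 by edgeR's quasi-likelihood test), and no alternative brought it past the threshold.

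GLT-1 (Slc1a2), which clears most synaptic glutamate in the forebrain, was at 2856, 2921 and 3089 CPM in control and at 3104 and 2748 CPM in DMSO. ONX-0914 replicate 1 was the lowest of the 7 libraries, at 2287 CPM, and replicate 2 the highest, at 3124 CPM. Log2FC was −0.13 (SE 0.241, FDR = 0.794 by edgeR's quasi-likelihood test), with a sign that turned without ONX-0914 replicate 1 (0.07) and with total counts as the only scaling (0.02). Without replicate 2 it was −0.37 (FDR = 0.0225). The ratio of Slc1a2 to Slc1a3 per exon length was 2.86 to 3.01 in control, 3.07 and 2.82 in DMSO, and 2.86 and 3.62 in ONX-0914, so that replicate 2 alone stood above the rest.

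The summed level of astrocyte markers went the opposite way to Slc1a2 in the ONX-0914 libraries, though not every marker did. They summed to 2888 to 3539 CPM in control and 3216 to 3342 CPM in DMSO. ONX-0914 replicate 1, with the lowest Slc1a2, had the highest sum, 3725 CPM, with 8 of 10 markers above all control libraries and 1 below. Replicate 2, with the highest Slc1a2, had the lowest sum, 2187 CPM, with 6 of 10 markers below and 2 above (Fgfr3 and Acsbg1, named after their values were seen). Aldoc, an astrocytic aldolase, was at 1092 to 1209 CPM in control and at 1606 and 891 CPM in ONX-0914. Gfap, the astrocytic filament protein, was at 753 to 1344 CPM in control and at 803 and 449 CPM in ONX-0914. None of the 10 was at 0 in all control libraries, and their part in the levels of Slc1a2, Slc1a3 and Glul was not tested.

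Glutamine synthetase (Glul), the astrocytic enzyme that closes the cycle and which oligodendrocytes also hold, was at 2174, 2150 and 1989 CPM in control. It was at 2333 and 2335 CPM in DMSO, and at 2200 and 1689 CPM in ONX-0914. ONX-0914 replicate 1 lay between control and DMSO, and replicate 2 was below every other library. Log2FC against control was −0.11 (SE 0.221, FDR = 0.799 by edgeR's quasi-likelihood test). It was −0.33 without ONX-0914 replicate 1 (FDR = 0.0169), and positive without replicate 2 (0.06) and with total counts as the only scaling (0.02). Oligodendrocyte markers summed to 5068 to 7626 CPM in control, 7905 to 9332 CPM in DMSO, 9981 CPM in ONX-0914 replicate 1 (8 of 9 markers above all control libraries) and 4511 CPM in replicate 2 (4 of 9 below, 2 above). Glul was thus above the control range in the DMSO and ONX-0914 replicate 1 libraries, where the oligodendrocyte sum was above control, and lowest where the astrocyte and oligodendrocyte sums were lowest. The part of glial cells in these values was not tested.

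SNAT1 (Slc38a1), a glutamine carrier of neurons including GABA interneurons, split the ONX-0914 libraries. It was at 259, 228 and 277 CPM in control, at 218 and 223 CPM in DMSO, and at 385 and 165 CPM in ONX-0914. Replicate 1 was the highest of the 7 libraries and replicate 2 the lowest. Its Log2FC against control was 0.11 (SE 0.315, FDR = 0.873 by edgeR's quasi-likelihood test). Taken alone, each ONX-0914 library differed from control past the threshold in its own direction, with a Log2FC of −0.64 without replicate 1 (FDR = 0.000382) and 0.59 without replicate 2 (FDR = 0.00112). The group mean therefore lay near control although neither library did.

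Each ONX-0914 library was also set against control alone, a fit in which the lone library is assumed to vary like the control and DMSO libraries. Without replicate 1, 5 of the 8 genes were past FDR 0.05 (Slc17a6 higher, Slc17a8, Slc1a1, Glul and Slc38a1 lower), beside 51.2% of all genes. Without replicate 2, 6 were (Slc17a6 and Slc38a1 higher, Slc17a7, Slc17a8, Slc1a1 and Slc1a2 lower), beside 19% of all genes. Slc17a6, Slc17a8 and Slc1a1 were past the threshold in the same direction in both fits, as were 6.95% of the 13423 genes tested in both. The fits share all control and DMSO libraries. In the first fit the members' share was close to that of all genes.

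DMSO without ONX-0914 was set against control to see what the solvent schedule did. None of the 8 genes passed FDR 0.05 by edgeR's quasi-likelihood test, where 0.0152% of all genes did (2 genes), and none had an unadjusted p under 0.05, against 2.65% of all genes. DESeq2 called none of the 8 and 0.0684% of all genes. Log2FC was −0.11 for Slc17a6, −0.05 for Slc17a7 and −0.35 for Slc17a8. It was −0.17 for Slc1a1, −0.01 for both Slc1a2 and Slc1a3, 0.15 for Glul and −0.21 for Slc38a1, with a standard error of 0.154 to 0.569. It was negative for 7 of the 8, against 50.5% of all genes. Both DMSO libraries lay above all control libraries for Glul, against 15.7% of all genes, and below them for Slc1a1 and Slc38a1, against 15% of all genes. The signs for Slc17a6, Slc17a7, Slc1a2 and Slc1a3 turned when 1 library was left out.

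ONX-0914 was also set against DMSO, its own solvent control, a comparison that shares the ONX-0914 libraries with the one against control. None of the 8 genes passed FDR 0.05 by edgeR's quasi-likelihood test (0.0456% of all genes, 6 genes, did), and 2 had an unadjusted p under 0.05, against 14.7% of all genes. DESeq2 called 1, Slc17a6 (FDR = 0.00514), and 1.86% of all genes. Log2FC was 2.29 for Slc17a6 (SE 0.614, FDR = 0.199), −1.47 for Slc17a8 (SE 0.376, FDR = 0.180), −0.71 for Slc17a7 (SE 0.444, FDR = 0.456) and −0.36 for Slc1a1 (SE 0.168, FDR = 0.354), by edgeR's quasi-likelihood test. The others were Slc1a2 at −0.11, Slc1a3 and Glul at −0.26 and Slc38a1 at 0.31. With ONX-0914 replicate 1 left out, Slc38a1 turned to −0.43 and Slc1a2 to 0.08, Slc17a6 came to 0.84, Slc17a7 to −0.12 and Glul to −0.48. With replicate 2 left out, Slc38a1 was at 0.80, Slc1a2 at −0.36, Slc17a6 at 2.99, Slc17a7 at −1.74 and Glul at −0.09. Both ONX-0914 libraries lay above both DMSO libraries for Slc17a6 (20.8% of all genes did) and below them for Slc17a7, Slc17a8, Slc1a1, Slc1a3 and Glul (19.7% did). Beside the comparison with control, Slc1a1 was nearer to DMSO, and Glul, which stood above control in DMSO, was farther from it.

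Of the other genes of glutamate transport and metabolism, 41 genes in 5 lists were examined, and none passed FDR 0.05 in any of the 3 comparisons with all libraries. Among all tested genes, 0.114% passed for ONX-0914 against control, 0.0152% for DMSO against control and 0.0456% for ONX-0914 against DMSO. A positive Log2FC against control was held by 53.8% of all tested genes, by 50.5% with ONX-0914 replicate 1 left out and by 52.2% with replicate 2 left out. The nearest was Slc25a18, a mitochondrial glutamate carrier of astrocytes, at 22.6 to 24.0 CPM in control, 28.7 and 33.2 CPM in DMSO, and 48.1 and 59.5 CPM in ONX-0914. The Log2FC of ONX-0914 against control was 1.21 (SE 0.184, FDR = 0.0518 by edgeR's quasi-likelihood test), and the 3 groups did not overlap. It was the only 1 of the 12 metabolic enzymes and mitochondrial carriers under FDR 0.1. Leaving out replicate 1 or 2 of ONX-0914 gave a Log2FC of 1.34 or 1.04 for it. Of these 12, 9 had a positive and 3 a negative Log2FC, with 5 positive when replicate 1 was left out and 10 when replicate 2 was. Oat, the mitochondrial ornithine aminotransferase, was at 62.7 to 72.0 CPM in control, 76.5 and 86.4 CPM in DMSO and 76.5 and 84.9 CPM in ONX-0914, so that both treated groups lay above control.

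The other membrane carriers of the Slc1 family and the cystine/glutamate exchanger had a positive Log2FC against control in 5 of the 5 tested genes, with Slc1a7 left out by the filter, and in 4 of the 5 with either ONX-0914 library left out. Slc7a11, the exchanger that brings in cystine for glutamate, was at 20.7 to 23.9 CPM in control, 30.3 CPM in both DMSO libraries, and 31.5 and 38.0 CPM in ONX-0914. Its Log2FC was 0.62 against control (SE 0.188, FDR = 0.161 by edgeR's quasi-likelihood test) and 0.20 against DMSO, the DMSO libraries already lying above control. Slc1a4, a neutral amino acid carrier, overlapped between groups (Log2FC 0.33, SE 0.235), with 0.62 when ONX-0914 replicate 1 was left out and −0.09 when replicate 2 was.

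Of 7 further glutamine carriers, 6 had a positive Log2FC against control, 6 with ONX-0914 replicate 1 left out and 2 with replicate 2 left out. Slc38a3, the glutamine exporter of astrocytes, was at 34.4 to 42.0 CPM in control, 41.8 and 42.4 CPM in DMSO, and 40.3 and 88.7 CPM in ONX-0914. Slc38a5, an astrocytic relative of it, was at 3.58 to 8.18 CPM in control, 3.76 and 3.93 CPM in DMSO, and 5.29 and 19.96 CPM in ONX-0914. In both genes ONX-0914 replicate 2 alone was high, the reverse of Slc38a1, which was high in replicate 1.

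The GABA branch had a positive Log2FC in 5 of 6 genes against control and in 6 of 6 against DMSO, and a negative one in 6 of 6 for DMSO against control, comparisons that share libraries. A negative Log2FC for DMSO against control was held by 50.5% of all genes. A positive Log2FC was held by 53.8% of all genes against control and against DMSO alike. The counts of genes with a positive Log2FC rested on ONX-0914 replicate 1. Without it, 2 of 6 were positive against control and 3 of 6 against DMSO, and without replicate 2, 6 of 6 were in either comparison. Replicate 2 was below all control libraries for Gad2, the second GABA-making enzyme (122 to 142 CPM in control, 317 and 106 CPM in ONX-0914), and Slc32a1, the vesicular GABA transporter (65.7 to 75.2 CPM, then 164 and 46.7 CPM). It was also below for Abat, which breaks GABA down (281 to 302 CPM, then 528 and 219 CPM), and for Aldh5a1, the next enzyme of that path (99.5 to 113 CPM, then 116 and 74.9 CPM). These 4 were chosen after their values were seen. In DMSO, Gad2 was at 84.6 and 103 CPM and Slc32a1 at 60.3 and 70.8 CPM. Abat was at 215 and 269 CPM there, and Aldh5a1 at 77.5 and 80.3 CPM. Both DMSO libraries were thus also below all control libraries for Gad2, Abat and Aldh5a1, and overlapped control for Slc32a1. ONX-0914 replicate 2 was above both DMSO libraries for Gad2, between them for Abat, and below both for Slc32a1 and Aldh5a1. Striatum markers, whose main neurons are GABAergic, summed to 172 to 204 CPM in control, 180 to 207 CPM in DMSO, and 1211 and 136 CPM in ONX-0914 replicates 1 and 2, and their part in these values was not tested. GAT-3 (Slc6a11), an astrocytic GABA carrier, was at 92.0 to 105 CPM in control, 93.2 and 105 CPM in DMSO, and 407 and 130 CPM in ONX-0914 (Log2FC against control 1.41, SE 0.391, FDR = 0.144 by edgeR's quasi-likelihood test). Like Slc17a6, it was above all other libraries in both and much the higher in replicate 1. The Log2FC of Slc6a11 against control was 0.36 with ONX-0914 replicate 1 left out and 2.01 with replicate 2 left out. Gad1, an enzyme that makes GABA from glutamate, was at 216 to 245 CPM in control, 185 to 209 CPM in DMSO, and 405 and 254 CPM in ONX-0914, with no overlap between groups (Log2FC against control 0.53, SE 0.217, FDR = 0.243 by edgeR's quasi-likelihood test). Leaving out ONX-0914 replicate 1 gave a Log2FC against control of 0.15 for Gad1, and leaving out replicate 2 gave 0.83.

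Of 10 partner proteins of the transporters, 5 had a positive and 5 a negative Log2FC, with 4 positive when either ONX-0914 library was left out. Atp1b2, the glial beta subunit of the sodium pump that drives uptake, was at 341 to 399 CPM in control, 320 and 353 CPM in DMSO, and 577 and 507 CPM in ONX-0914 (Log2FC 0.58, SE 0.171, FDR = 0.157 by edgeR's quasi-likelihood test). Atp6v1a, a subunit of the proton pump that powers vesicle loading, was at 713 to 812 CPM in control, 714 and 808 CPM in DMSO, and 537 and 563 CPM in ONX-0914 (Log2FC −0.45, SE 0.179, FDR = 0.237 by edgeR's quasi-likelihood test). Both were outside the range of the 5 other libraries, in opposite directions.

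**Figure D5:**
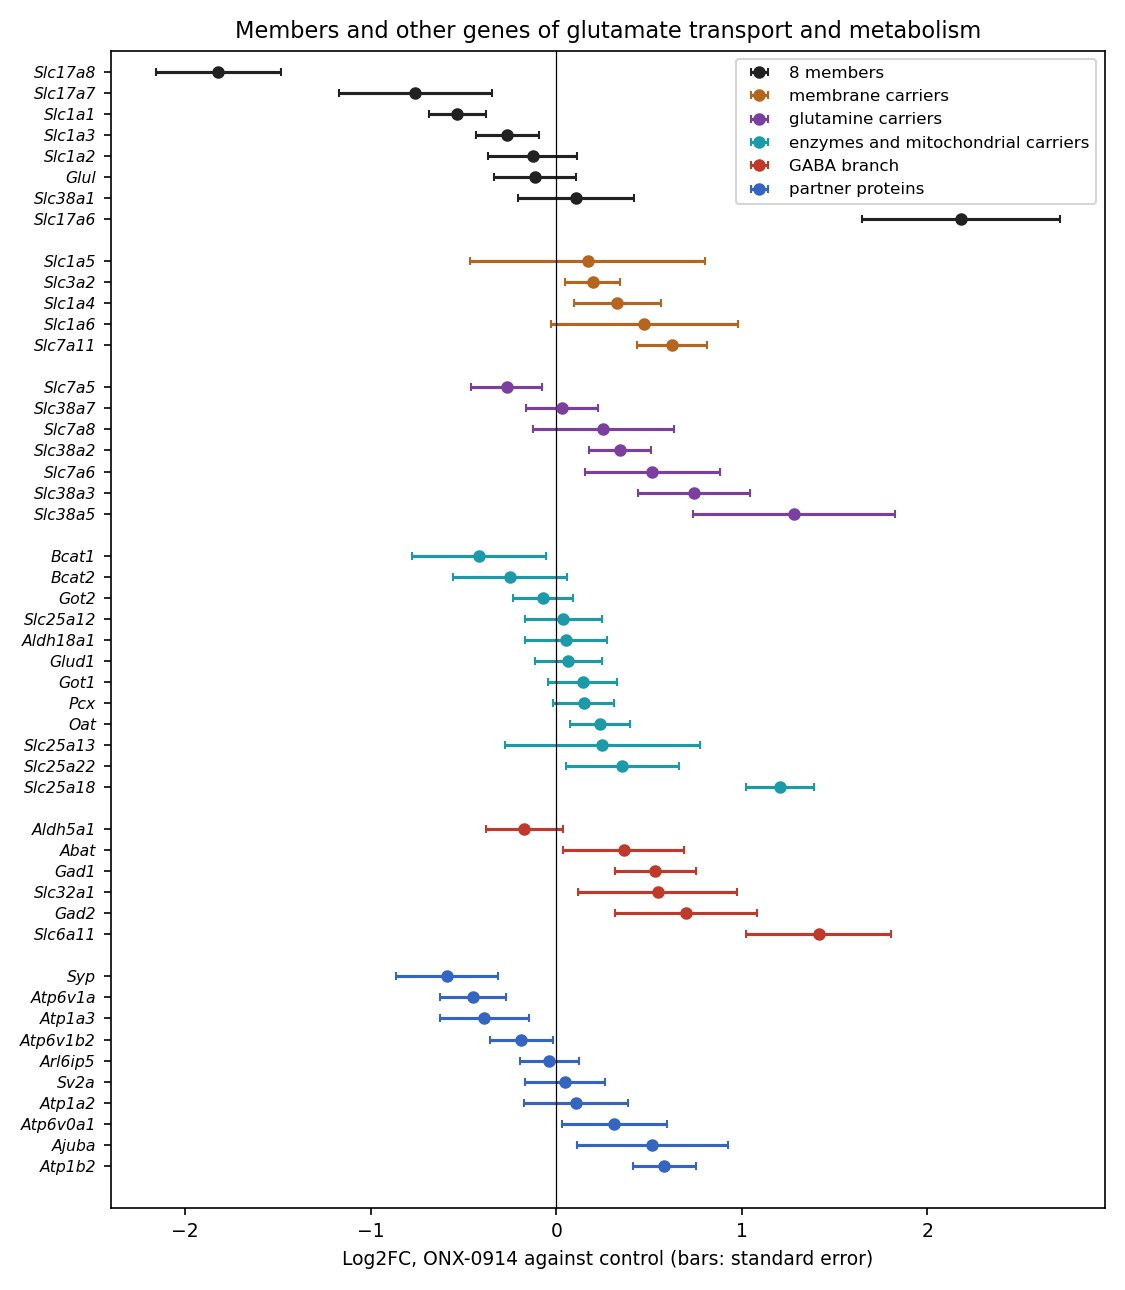
Log2FC of ONX-0914 against control with its standard error for the 8 genes and the tested genes of the 5 lists, 1 row per gene, coloured by list. Slc17a6 (2.18) and Slc17a8 (−1.82) have the highest and the lowest value shown, and Slc25a18 (1.21) has the narrowest error among the values past 1.

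The genes whose log2 CPM followed each of the 8 most closely over the 7 libraries are named as a description, by Pearson's r among genes with a mean of at least 10 CPM. They were Lrig1, Plekhg1 and Plcb4 for Slc17a6 (r = 0.998 to 0.992), of which Plekhg1 is on the thalamus and midbrain list. For Slc17a7 they were Dnah9, Itpka and Nell2 (r = 0.9996 to 0.9968), and for Slc17a8 Rab8b, Chid1 and Fmr1 (r = 0.993 to 0.987). For Slc1a1 they were Sh3pxd2a, Dido1 and Igf2r (r = 0.992 to 0.989). Slc1a2 was followed by Cdipt, Wdtc1 and Slit3 (r = 0.995 to 0.977) and Slc1a3 by Rbfox3, Tnks1bp1 and Orai2 (r = 0.995 to 0.990). Glul was followed by Lamtor1, Eif2s1 and Ephb1 (r = 0.990 to 0.988), and Slc38a1 by Sdc3, Bcl7c and Gpld1 (r = 0.997 to 0.990). These values come from 7 libraries, the ONX-0914 pair included, with at least 9519 genes compared for each member.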

How the data were processed

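RNA of 7 libraries labelled hippocampus (for ONX-0914 replicate 1, markers put this label in doubt) was sequenced as 100-base single-end reads from directional libraries. The deposited values were raw read counts per gene, made by the authors from each library on its own. The submitters' processing notes name Trimmomatic 0.39, STAR 2.7.3a, featureCounts 2.00 and GRCm39. The annotation release and the strand setting are not given in the sources used here, so reads of overlapping antisense genes may be included. Counts were analysed in edgeR 4.0.16 (R 4.3.3). Genes were filtered with filterByExpr, libraries scaled by TMM, and all 7 fitted together by the quasi-likelihood method with 1 mean per group. P-values were adjusted by Benjamini-Hochberg over 13152 genes, with a call at FDR under 0.05. SE is the Log2FC divided by the square root of the F statistic. CPM use the scaled library sizes, and CPM per kb the union of exons in GENCODE M21 (GRCm38). Of the identifiers, 52083 had a symbol in those tables, holding 99.8% of counts. Library totals were 2842675 to 13782270.

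The members and lists (8 members, 5 pathway lists, 13 marker lists) were chosen with earlier results of these data known. All 8 members are named in every comparison. Of each pathway list, genes called in any comparison would be named, and otherwise the 2 with the smallest p against control. A gene of the GABA list is not reported here and is left out of that list's counts. For each member the 3 genes of highest r are named, and of a marker list the 2 of highest mean CPM together with defining markers at 0. The test was tried on simulated counts, where at ONX-0914 against control 88 of 97 genes changed by 2 on the log2 scale and 38 of 98 changed by 1 were recovered, with 12 false calls, over 12856 genes. Alternatives were DESeq2 1.42.0, limma voom 3.58.1, other scalings and filters, mitochondrial genes left out, a replicate block, only the groups compared, each library left out, and, chosen after seeing the data, the earlier form of the quasi-likelihood fit.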

Additional observations from a re-analysis of the deposited data

How the results depend on the processing

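The limits are the pair of ONX-0914 libraries, which differ from each other more than from control for several of the 8 genes, and depth, since Slc17a8 rests on 9 to 34 counts a library. Of the members, none was called against control in the main test (3 at an unadjusted p under 0.05), 2 by DESeq2, 2 with no filter on low counts, and 0 to 6 with 1 library left out. Against DMSO none was called (2 at an unadjusted p under 0.05), 1 by DESeq2, 1 with no filter, and 0 to 5 with 1 library left out. For DMSO against control none was called under any alternative, DESeq2 included. Over all genes the 15 calls against control became 388 by DESeq2, 578 with no filter, 1 with the replicate block, 3 with only the groups compared and 0 to 7023 with 1 library left out. The 2 calls of DMSO against control became 9 by DESeq2, 11 with no filter, 141 with only the groups compared, and 0 to 146 with 1 library left out. There were 0 by limma voom, with at least 10 counts in every library and with the replicate block (300, 290 and 281 genes at an unadjusted p under 0.05). The 6 calls of ONX-0914 against DMSO became 245 by DESeq2, 11 with RLE size factors, 3 with total counts, 297 with no filter, 10 with at least 10 counts in every library and 0 to 6313 with 1 library left out. There were 0 with the replicate block and with only the groups compared (1641 and 821 at an unadjusted p under 0.05). The cause of these shifts was not tested.

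Signs turned as follows. With total counts, Log2FC against control was 0.021 for Slc1a2 and for Glul, that of DMSO against control 0.0018 for Slc1a3, and that of ONX-0914 against DMSO 0.027 for Slc1a2. That scaling also moved the median Log2FC of all genes against control from 0.05 to 0.19. With the replicate block, Slc38a1 was at −0.0067 against control, and Slc17a6 at 0.17 in DMSO against control. Deviations of same-numbered libraries from their group means correlated between −0.0963 and 0.0640. Within the DMSO and ONX-0914 pairs these deviations mirror each other, so the values cannot show whether the replicate numbers mark matched libraries. The block brought no member past the threshold. With 1 library left out, Log2FC against control ran from −0.37 to 0.070 for Slc1a2, −0.33 to 0.061 for Glul and −0.64 to 0.59 for Slc38a1. For DMSO against control it ran from −0.40 to 0.12 for Slc17a6, −0.13 to 0.015 for Slc17a7, −0.11 to 0.069 for Slc1a2 and −0.037 to 0.018 for Slc1a3. For ONX-0914 against DMSO it ran from −0.36 to 0.085 for Slc1a2 and −0.43 to 0.80 for Slc38a1. Where an ONX-0914 library is left out, the lone one is assumed to vary like the other groups. Slc17a8 had no value with at least 10 counts in every library, which that filter removed. The direction of Slc17a6, Slc17a7, Slc17a8, Slc1a1 and Slc1a3 against control was the same under every alternative run.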
